A study of Mus musculus with 39 samples.

Results

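Fatty acid oxidation was described through 35 genes, named by symbol and chosen as the enzymes, carriers and regulators that take a fatty acid from activation to acetyl-CoA. All 35 were listed in each of the 5 deposited tables, among 20981 genes in the table of reprogramming cells, 20875 in that of pluripotent lines, 20354 in that of germ cell induction and 17993 in that of starting cells. The last table, with 30849 Ensembl IDs and no symbols, held 1 fibroblast library. The study made pluripotent cells from mouse granulosa cells, which enclose and nourish the oocyte, and turned them into germ cells. All 39 libraries, in 14 groups, came from strain C57BL6/CBA.

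Granulosa cells (GC) and embryonic fibroblasts (MEF) had 2 libraries each. Reprogramming cells had 2 libraries at day 16, when the submitters call them XEN-like, 2 at day 28 and 2 at day 28 after 7 mM crotonic acid given from day 16 onwards. The 6 numbered lines of pluripotent cells made from granulosa cells (gPSC lines 2, 4, 10, 11, 15 and 16) had 1 library each, and a female ES line of the strain had 2. For germ cell induction, a female ESC line and line gPSC4 were sampled with 3 libraries each, as epiblast-like cells (EpiLC) after 2 days with KSR, bFGF and activin A, and, as PGCLC, cells resembling primordial germ cells, after 4 more days with BMP4, SCF, EGF and LIF. Germ cells of the E12.5 embryo (PGC) gave 3 libraries. Each origin in the induction was 1 line, so differences between origins are differences between those 2 lines. Whether replicate libraries stem from different cultures or animals is not stated in the labels, so p-values measure the spread between libraries.

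In the cell, a long-chain fatty acid is first joined to coenzyme A by acyl-CoA synthetases of the Acsl family or by Slc27a proteins. Carnitine palmitoyltransferase 1 (Cpt1a or Cpt1b) moves the acyl group onto carnitine, while the related Cpt1c has little transferase activity. The carrier Slc25a20 takes the acyl group across the inner mitochondrial membrane and Cpt2 returns it to coenzyme A. Each turn of beta-oxidation then uses an acyl-CoA dehydrogenase, a hydratase, a 3-hydroxyacyl-CoA dehydrogenase and a thiolase, while Etfa, Etfb and Etfdh carry the electrons to the respiratory chain. Peroxisomes shorten very long chains with Ehhadh, Hsd17b4 and Acaa1a. Crotonyl-CoA, the activated form of crotonic acid, is an intermediate of the same spiral: Acads makes it from butyryl-CoA, and Echs1 hydrates it. Hadha, a subunit of the trifunctional protein, carries a further hydratase of the spiral.

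Levels were deposited as FPKM, fragments per kilobase scaled to library size, which allow genes to be compared per length. Differences were tested within a table by limma on log2(FPKM + 1), which understates the change of low genes, and p-values were adjusted by Benjamini-Hochberg over all genes tested. "Rose", "fell", "higher" and "lower" with a count are used where the adjusted p was under 0.05 and the means differed by 1 or more on the log2 scale. Of the 35 genes, 33 passed the filter on low values in the reprogramming and line tables and 34 in the induction table. Summed FPKM per library ran from 386624 to 1067670, and whole reads recovered in the induction table numbered 6107039 to 25223264 per library. For the 35 genes, these were 607 to 4535 reads of Etfb, 15 to 2466 of Acsl4, 0 to 52 of Ppara and 0 to 35 of Ppargc1a. Replicates correlated at Pearson's r of 0.958 to 0.996, and at most 0.81% of their values were identical.

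The labels were set beside marker genes. Granulosa markers summed to 10094 and 11001 FPKM in the granulosa libraries and to between 24.96 and 50.1 FPKM in the 6 gPSC lines. Pluripotency markers summed to between 3435 and 4163 FPKM in those lines. Fibroblast markers, 8 of 8 at or above 1 FPKM in every line, summed to between 879 and 1849 FPKM there and to 975 and 1047 FPKM in the ES libraries, against 44.3 and 47.5 FPKM in the granulosa libraries. Their part in the differences from granulosa cells was not tested. In the PGCLC and PGC libraries, germ cell markers summed to between 3180 and 3546 FPKM, against at most 172 FPKM in the other induction libraries. The same 9 libraries held erythroid markers at 952 to 1374 FPKM, against at most 5.02 FPKM elsewhere in that table, with the globin gene Hba-a1 at 293 to 733 FPKM. They also held 6 of 6 markers of fetal gonad soma, at 165 to 217 FPKM in sum, against at most 51.5 FPKM in EpiLC. In bulk libraries, fewer cells of a type and less RNA per cell cannot be told apart.

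Of the 35 genes, 29 had a RefSeq promoter window on build GRCm38.p6, from 250 bases before to 50 after a start site. The 4 windows below belong to the genes whose levels moved furthest on the way to EpiLC: Cpt1a (chr19:3323051-3323350, plus strand) and Slc25a20 (chr9:108661886-108662185, plus strand), which fell, and Slc27a2 (chr2:126552774-126553073, plus strand) and Acsl4 (chrX:142390486-142390785, minus strand), which rose. Capitals mark the nuclear receptor core motif AGGTCA and the GC box GGGCGG, each on either strand.

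Cpt1a: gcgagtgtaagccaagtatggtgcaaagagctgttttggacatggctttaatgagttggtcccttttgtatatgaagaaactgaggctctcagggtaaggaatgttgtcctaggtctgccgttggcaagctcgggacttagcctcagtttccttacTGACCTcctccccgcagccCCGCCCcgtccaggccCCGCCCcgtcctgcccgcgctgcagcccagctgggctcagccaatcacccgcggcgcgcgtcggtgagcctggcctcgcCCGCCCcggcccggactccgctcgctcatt

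Slc25a20: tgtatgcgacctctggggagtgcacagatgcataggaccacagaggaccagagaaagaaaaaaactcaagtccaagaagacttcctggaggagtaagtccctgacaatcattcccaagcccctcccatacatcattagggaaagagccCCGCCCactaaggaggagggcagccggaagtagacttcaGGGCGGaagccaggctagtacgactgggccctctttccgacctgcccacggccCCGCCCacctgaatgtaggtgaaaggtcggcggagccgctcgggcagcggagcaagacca

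Slc27a2: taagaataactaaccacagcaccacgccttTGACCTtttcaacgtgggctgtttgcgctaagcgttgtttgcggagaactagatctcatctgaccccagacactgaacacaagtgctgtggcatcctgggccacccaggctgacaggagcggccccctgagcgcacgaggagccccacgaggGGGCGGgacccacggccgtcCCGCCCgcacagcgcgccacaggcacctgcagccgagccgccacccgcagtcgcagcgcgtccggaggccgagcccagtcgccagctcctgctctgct

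Acsl4: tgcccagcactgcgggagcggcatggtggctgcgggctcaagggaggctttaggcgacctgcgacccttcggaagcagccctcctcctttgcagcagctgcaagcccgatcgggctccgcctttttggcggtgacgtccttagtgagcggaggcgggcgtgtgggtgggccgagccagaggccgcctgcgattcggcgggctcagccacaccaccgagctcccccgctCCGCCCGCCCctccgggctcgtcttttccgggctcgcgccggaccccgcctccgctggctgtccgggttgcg

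The core motif stood in the windows of 6 of the 29 genes, 20.7%, against 16.3% of all 32841 promoter windows, and those 6 were Acadm, Acadvl, Cpt1a, Cpt1c, Echs1 and Slc27a2. In Cpt1a it began at base 157 of the window and in Slc27a2 at base 31, both on the minus strand. The windows of Slc25a20 and Acsl4 held GC boxes and no core motif. The GC box was in the windows of 24 of the 29 genes, 82.8%, against 35.7% of all windows. A gene was counted where any of its windows held the motif, with 32 windows for the 29 genes. The shares of all windows count single windows, of genes expressed here or not. None of the 29 held the extended motif TCAAGGTCA, the direct repeat AGGTCANAGGTCA, both of which contain the core motif, or the octamer ATGCAAAT, which 0.423%, 0.0396% and 1.74% of all windows held.

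Granulosa cells were compared with the pluripotent lines made from them. Of the 33 genes tested, 10 were lower and 1 higher in the 6 lines than in the granulosa cell library, against 17.7% of all 13797 genes lower and 21.8% higher. The median log2 difference of the 33 was −0.42, and that of all genes 0.09. The granulosa group was 1 library, whose spread was taken to be that of the lines. The sum of all 35 levels was 1213 FPKM in granulosa cells and 681 to 785 FPKM in the lines.

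The carnitine shuttle held the largest difference. Cpt1a, the entry step of the liver-type shuttle (gene at chr19:3322326-3385735, GRCm38.p6), was at 182 FPKM in granulosa cells and at 11.7, 12.6, 13.6, 14.7, 15.7 and 16.7 FPKM in the lines. It was 12.8-fold lower in the line mean (log2 difference −3.60 ± 0.18 SE, adjusted p = 1.7e-06). No line came near the granulosa level. Cpt2 was at 24.97 FPKM in granulosa cells and 7.38 to 9.45 FPKM in the lines (−1.48 ± 0.13 SE, adjusted p = 3.2e-05), and Crat, which buffers acetyl groups on carnitine, at 11.9 against 2.98 to 4.78 FPKM (−1.47 ± 0.23 SE, adjusted p = 0.00072). The carrier Slc25a20 had the opposite sign, 14.4 FPKM in granulosa cells and 19.2 to 32.2 FPKM in the lines, without reaching the minimum difference (0.71 ± 0.22 SE).

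Among the activating enzymes, Acsl4, which prefers arachidonic acid, was at 53.1 FPKM in granulosa cells and between 5.82 and 7.42 FPKM, median 6.70, in the lines. It was 7.98-fold lower (log2 difference −2.83 ± 0.14 SE, adjusted p = 1.9e-06). Acsl5 was at 25.4 FPKM in granulosa cells and between 5.35 and 6.73 FPKM in the lines (−1.93 ± 0.13 SE, adjusted p = 9.4e-06). Both were lower in every line. Acsl1 and Acsl3 were at 6.06 and 10.6 FPKM in granulosa cells and had line means of 6.29 and 12.2 FPKM, with neither called. Slc27a2, a transporter with very long-chain acyl-CoA synthetase activity, was the 1 gene higher in the lines, at 3.22 to 9.63 FPKM, median 8.38, against 0.53 FPKM (2.35 ± 0.48 SE, adjusted p = 0.0027). It passed the filter on low values through the lines alone.

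Inside the mitochondrion the genes split. Acadl, the long-chain dehydrogenase, was at 58.4 FPKM in granulosa cells and 9.90 to 13.7 FPKM in the lines (−2.29 ± 0.19 SE, adjusted p = 2.1e-05). The thiolase Acaa2 was at 54.4 against 11.5 to 17.4 FPKM (−1.89 ± 0.21 SE, adjusted p = 0.00010). Decr1, a reductase for unsaturated chains, Etfdh, which hands electrons to ubiquinone, and the branched-chain dehydrogenase Acadsb were lower by 1.59 to 1.63 on the log2 scale. Genes for other steps did not pass: Acads was at 26.9 FPKM in granulosa cells with a line mean of 27.4 FPKM, Hsd17b10 at 56.6 and 57.1 FPKM, and Etfb at 60.05 and 88.8 FPKM. The medium-chain dehydrogenase Acadm (−0.78) and Hadha (−0.68) had adjusted p under 0.05 without the minimum difference. Of the peroxisomal genes none passed, the nearest being Hsd17b4 at 49.6 FPKM against 26.0 to 28.6 FPKM (−0.86 ± 0.09 SE). Ppara and Ppargc1a, regulators of the pathway in liver and muscle, were under 1 FPKM in all 7 libraries and were not tested.

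**Figure D1:**
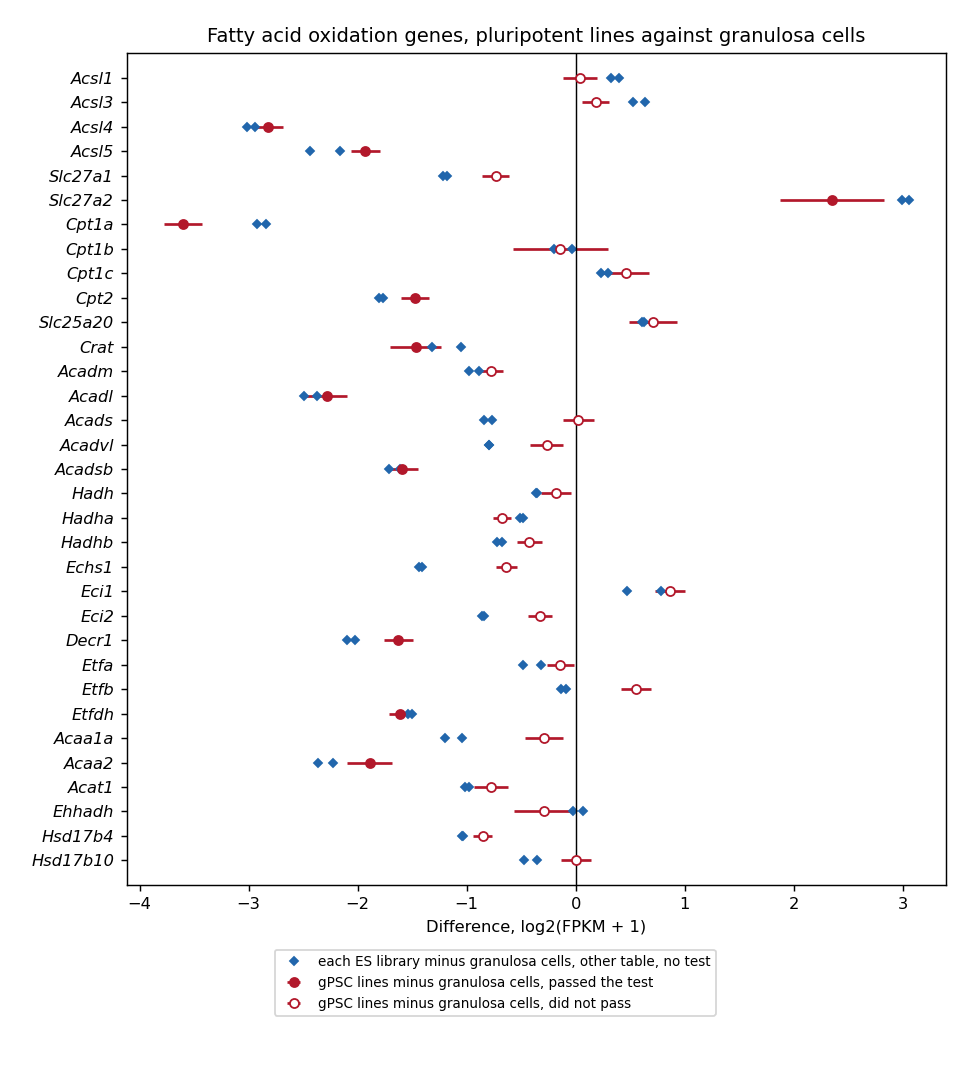
Differences in log2(FPKM + 1) from granulosa cells for the 33 genes tested, with the mean of 6 gPSC lines as circles with SE (filled where called) and each of 2 ES libraries, from another table, as diamonds. Cpt1a, Acsl4 and Acadl lie furthest to the left in the lines and Slc27a2 furthest to the right.

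A second granulosa cell library, in the table of starting cells, stood beside 2 ES libraries and 1 fibroblast library. With 1 granulosa library a test was not made, and a difference of at least 1 on the log2 scale in both ES libraries was counted. Of 33 genes, 14 were past it lower in ES cells and 1 higher, against 16.8% and 18.7% of 13245 genes. All 10 genes lower in the gPSC lines were among these 14, which is 71.4% of them, and the other 4 were Slc27a1, Echs1, Acaa1a and Hsd17b4. Slc27a2 was the higher gene in both comparisons, and passed the filter in both tables through the pluripotent cells alone. Cpt1a was at 179 FPKM in granulosa cells, 22.6 and 24.1 FPKM in ES cells and 11.5 FPKM in the fibroblasts. In fibroblasts 16 of the 33 genes were past the difference lower than granulosa cells and 0 higher, against 17.5% and 11.7% of all genes. When libraries were rescaled to median ratios, 10 were lower, and the share of all genes at that setting is not given here. Genes of the trio around crotonyl-CoA differed between cells: Echs1 was at 62.6 FPKM in granulosa cells, 22.5 and 23.0 FPKM in ES cells and 21.6 FPKM in fibroblasts, while Hadha was at 62.0, 43.3 and 44.0, and 42.0 FPKM. The comparisons of ES cells and fibroblasts share the granulosa library.

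Across the 6 gPSC lines the spread of the genes was near that of all genes, without matching for level. Over the 32 genes with a line mean of at least 1 FPKM, the median coefficient of variation was 9.89%, and over the 12353 genes at that level 11.7%. Slc27a2 varied by 35.9%, with 3.22 FPKM in line 10 and 4.81 FPKM in line 2 and at least 7.92 FPKM in the other 4 lines. Ehhadh, at 1.20 to 2.73 FPKM, varied by 30.3%, with the same 2 lines lowest. Hadha varied least, by 3.47%.

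Crotonic acid was tested at day 28 of reprogramming. No gene of the 33 was called, against 0.852% of 13266 genes higher and 1.2% lower. By limma, 8 of the 33 had an unadjusted p under 0.05, as did 21.6% of all genes, and no other tool was run on this table. The median difference was 0.07, with 24 genes above 0, and that of all genes was −0.05.

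Echs1 and Acads, which handle crotonyl-CoA, and Hadha were examined first. Echs1 was at 57.3 and 51.8 FPKM without crotonic acid and at 49.8 and 48.5 FPKM with it. Its log2 difference was −0.14, with a 95% confidence interval of −0.43 to 0.14 (adjusted p = 0.57, limma). Its 2 groups did not overlap, and the gap between them was smaller than that between the 2 untreated libraries. Acads was at 35.6 and 32.5 FPKM without and 39.2 and 43.0 FPKM with crotonic acid, a difference of 0.26 with an interval of 0.03 to 0.50 (adjusted p = 0.18, limma). Both treated libraries were above both untreated ones. Hadha was at 57.4 and 53.6 FPKM without and 63.6 and 58.0 FPKM with crotonic acid, a difference of 0.13 with an interval of −0.09 to 0.35 (adjusted p = 0.50, limma). A change of the size the test required, 1 on the log2 scale, lay outside all 3 unadjusted intervals.

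Of the other genes, Acadl alone had an adjusted p under 0.05, with a small difference. It was at 50.5 and 48.2 FPKM without and 65.7 and 65.0 FPKM with crotonic acid (0.40 ± 0.08 SE, adjusted p = 0.036). The day 16 libraries stood at 65.1 and 63.8 FPKM, level with the treated ones. The widest difference belonged to Slc27a1, a long-chain transporter with synthetase activity, at 21.8 and 21.6 FPKM without and 12.9 and 13.3 FPKM with crotonic acid (−0.69 ± 0.16 SE, adjusted p = 0.063). Acsl4 was at 48.4 and 57.4 FPKM without and 72.7 and 82.5 FPKM with it (0.55 ± 0.19 SE, adjusted p = 0.17). Ppargc1a, a coactivator of the pathway, was at 2.82 and 3.28 FPKM without and 4.41 and 4.84 FPKM with it (0.48 ± 0.18 SE, adjusted p = 0.19). The remaining genes tested lay between −0.27 (Acat1) and 0.28 (Acadvl). The make-up of the cultures moved too: pluripotency markers summed to 85.2 and 88.4 FPKM with crotonic acid and 26.9 and 32.2 FPKM without, and fibroblast markers to 393 and 404 against 694 and 729 FPKM. Granulosa markers summed to 1067 and 1104 FPKM with crotonic acid and 801 and 846 FPKM without, and endoderm markers to 215 and 237 against 339 and 342 FPKM. The part of these markers in the gene differences was not tested.

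**Figure D2:**
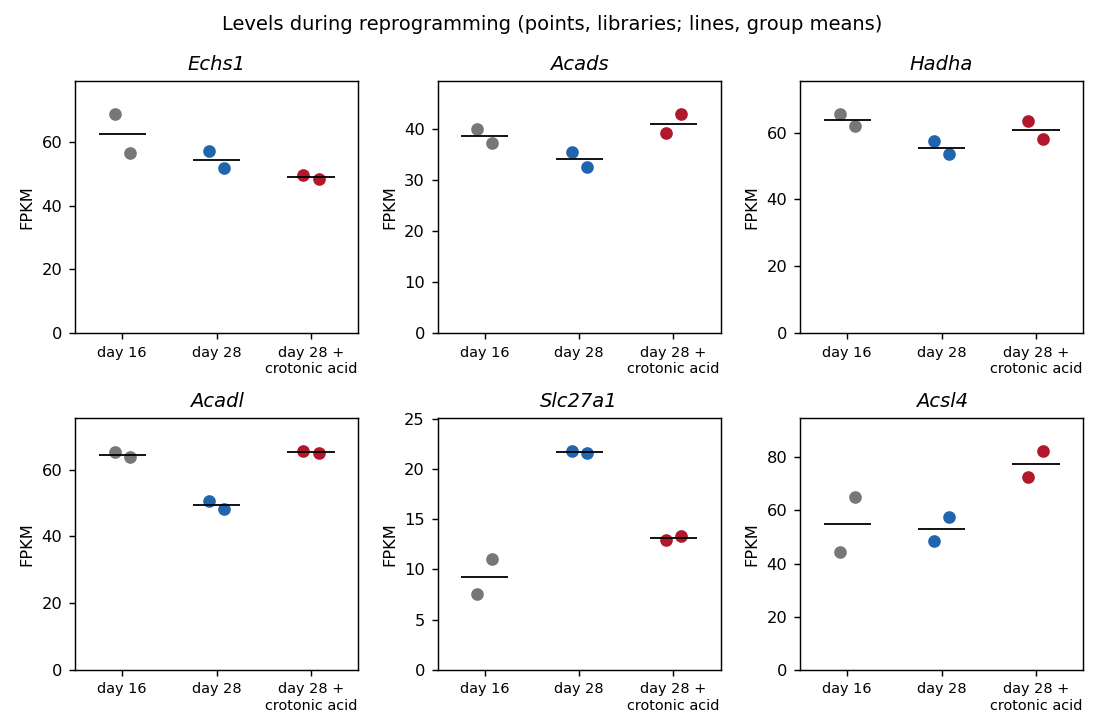
Levels (FPKM, axis from 0) of 6 genes in the 2 libraries each of day 16, day 28 and day 28 with crotonic acid, points being libraries and lines group means. The treated Acadl libraries lie at 65.0 and 65.7 FPKM, above both untreated ones, while Slc27a1 lies lower with crotonic acid than without.

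From day 16 to day 28 without crotonic acid, 1 gene of 33 was higher and 0 lower, against 4.51% and 0.829% of all genes. The higher gene was Slc27a1, at 7.58 and 11 FPKM at day 16 and 21.8 and 21.6 FPKM at day 28 (1.16 ± 0.16 SE, adjusted p = 0.0063). Between these days the summed granulosa markers went from 1652 and 1720 FPKM to 801 and 846 FPKM, fibroblast markers from 429 and 573 to 694 and 729 FPKM, endoderm markers from 230 and 244 to 339 and 342 FPKM and pluripotency markers from 1.27 and 1.91 to 26.9 and 32.2 FPKM, and their part was not tested. The Slc27a1 call was lost when libraries were rescaled (0.99 by either method), without the first day 16 library (0.92), and without either day 28 library (1.16 and 1.17, no longer significant). The median difference was −0.10 where that of all genes was 0.15. Rescaling moved the latter to −0.02 by both methods and the former to −0.28 by median ratios and −0.15 by quantiles. Acaa2 was the most abundant of the 35 genes at day 16, at 334 and 278 FPKM, and stood at 212 and 193 FPKM at day 28 (−0.59 ± 0.13 SE), under the minimum difference. Ehhadh (0.73) and Cpt1b (0.77) had the next largest positive differences. In this table Cpt1a made up 82.8 and 85.6% of the summed Cpt1 level at day 16 and 73.6 and 76.0% at day 28.

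Conversion of ESC and gPSC4 to EpiLC was the first step of germ cell induction. In the ESC origin 4 of 34 genes rose and 4 fell, against 9.64% and 11.3% of 14059 genes. In the gPSC4 origin 4 rose and 4 fell, against 10.1% and 10.3%. The genes were the same 8 in both: Acsl4, Acsl5, Slc27a2 and Cpt2 rose, and Cpt1a, Slc25a20, Acaa1a and Ehhadh fell. The 2 comparisons share no library. The median of the 34 was −0.21 in the ESC origin and −0.07 in the gPSC4 origin, beside 0.00 and 0.01 for all genes.

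Of the 4 risers, 3 activate fatty acids. Slc27a2 was at 10.2, 10.9 and 8.84 FPKM in ESC and 100, 93.3 and 84.1 FPKM in ESC-EpiLC (3.09 ± 0.22 SE, adjusted p = 6.2e-10). From gPSC4 it went from 8.74, 8.36 and 7.96 FPKM to 77.6, 69.9 and 72.3 FPKM. The lowest EpiLC library was thus far above the highest stem cell library. Acsl4 was at 11.9, 12.4 and 8.48 FPKM in ESC and 87.6, 87.2 and 79.1 FPKM in ESC-EpiLC (2.86 ± 0.29 SE, adjusted p = 1.2e-07). In gPSC4 it was at 10.9, 9.25 and 6.82 FPKM, and in gPSC4-EpiLC at 87.0, 75.5 and 75.4 FPKM. Acsl5 had the same form at lower levels. It was at 7.05, 10.7 and 9.68 FPKM in ESC and 34.2, 38.3 and 43.4 FPKM in ESC-EpiLC (1.98 ± 0.21 SE, adjusted p = 2.4e-07). In gPSC4 it was at 6.59, 5.99 and 7.62 FPKM and in gPSC4-EpiLC at 29.55, 37.5 and 35.5 FPKM. No EpiLC library overlapped a stem cell library. Cpt2 was at 10.97, 11.04 and 11.5 FPKM in ESC and 23.7, 21.2 and 28.6 FPKM in ESC-EpiLC (1.06 ± 0.17 SE, adjusted p = 4.9e-05), and was under the minimum difference without the third ESC-EpiLC library (0.95). From gPSC4 it went from 10.02, 8.38 and 16.4 FPKM to 25.2, 25.45 and 23.2 FPKM, a difference of 1.07, and 0.89 without the second gPSC4 library.

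Of the 4 genes that fell, Slc25a20 and Cpt1a belong to the carnitine shuttle, and Ehhadh and Acaa1a to the peroxisome. Other genes of these steps did not fall: Cpt2 rose, and Cpt1b, Cpt1c, Crat and the peroxisomal Hsd17b4 were not called in either origin. Hsd17b4 was at 33.2, 34.0 and 31.3 FPKM in ESC and 39.8, 41.0 and 35.4 FPKM in ESC-EpiLC. Slc25a20 was at 103, 105 and 128 FPKM in ESC and 17.6, 18.4 and 21.2 FPKM in ESC-EpiLC (−2.49 ± 0.14 SE, adjusted p = 3.7e-11). From gPSC4 it went from 136, 124 and 143 FPKM to 18.1, 17.6 and 19.0 FPKM, 7.38-fold lower. Cpt1a was at 30.8, 24.1 and 25.2 FPKM in ESC and 3.12, 4.19 and 3.43 FPKM in ESC-EpiLC (−2.60 ± 0.22 SE, adjusted p = 1.2e-08). In gPSC4 it was at 31.8, 32.3 and 27.4 FPKM and in gPSC4-EpiLC at 4.03, 6.22 and 2.83 FPKM. The groups were well apart in both origins. Ehhadh, the peroxisomal bifunctional enzyme, was at 8.70, 7.00 and 5.40 FPKM in ESC and 2.31, 2.97 and 0.67 FPKM in ESC-EpiLC (−1.50 ± 0.28 SE, adjusted p = 0.00023). Ehhadh from gPSC4 went from 7.65, 7.04 and 5.45 FPKM to 2.44, 1.97 and 1.05 FPKM. Acaa1a, the peroxisomal thiolase, was at 85.8, 92.1 and 96.3 FPKM in ESC and 41.5, 39.8 and 39.6 FPKM in ESC-EpiLC (−1.16 ± 0.12 SE, adjusted p = 2.4e-07). In gPSC4 it was at 87.9, 90.2 and 81.5 FPKM and in gPSC4-EpiLC at 31.6, 34.2 and 43.2 FPKM. For Ehhadh and Acaa1a the groups did not overlap in either origin. Acaa1a has a near-identical neighbour, Acaa1b, and the counting could have split reads between them.

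The enzymes of the spiral moved less at this step. Hadh averaged 123 FPKM in ESC and 130 FPKM in ESC-EpiLC, Echs1 120 and 116 FPKM and Etfa 168 and 159 FPKM. Acadm (−0.77 and −0.87 in the ESC and gPSC4 origins) and Acads (−0.73 and −0.66) had adjusted p under 0.05 with less than the minimum difference. Acadl had the opposite sign, 0.76 and 0.94. Marker levels at this step were 779 to 835 FPKM in sum for 4 EpiLC genes in ESC-EpiLC and 46.7 to 54.8 FPKM in ESC. The same 4 summed to 671 to 721 FPKM in gPSC4-EpiLC and 36.0 to 58.0 FPKM in gPSC4. Fibroblast markers moved the other way, from 275 to 282 FPKM in ESC to 16.9 to 18.6 FPKM in ESC-EpiLC. In gPSC4 they summed to 202 to 218 FPKM and in gPSC4-EpiLC to 14.0 to 16.0 FPKM. The part of these markers in the gene differences was not tested.

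**Figure D3:**
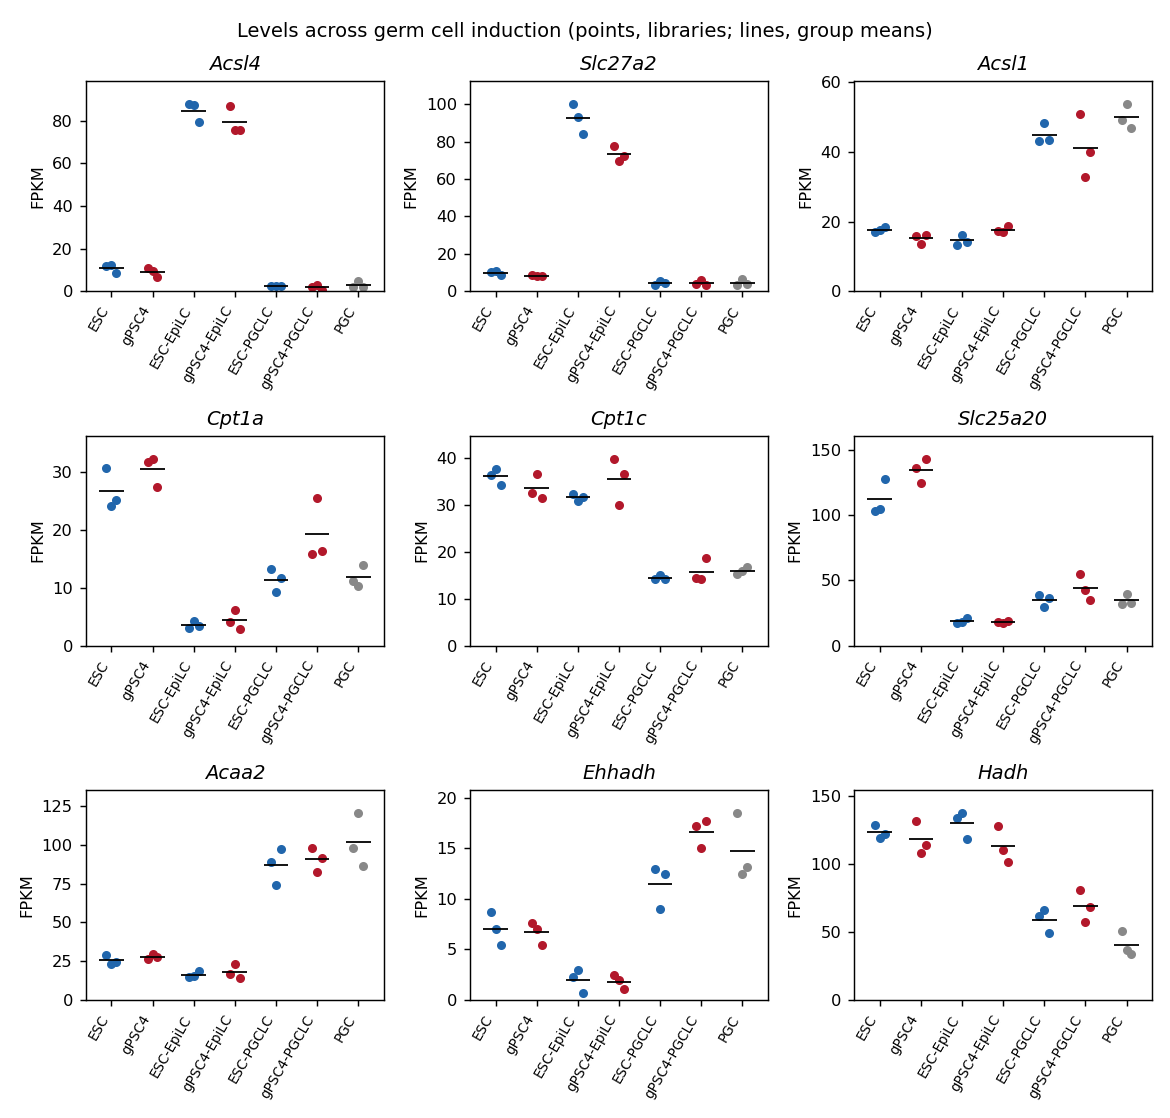
Levels (FPKM, axes from 0) of 9 genes in the 21 libraries of germ cell induction, with points as libraries and lines as group means, ESC origin in blue, gPSC4 origin in red and PGC in grey. Acsl4 and Slc27a2 peak in EpiLC, where Cpt1a, Slc25a20 and Ehhadh have their lowest means, and Acaa2 is highest in PGCLC and PGC.

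At the step from EpiLC to PGCLC, 11 of 34 genes rose and 5 fell in the ESC origin, against 16.7% and 12.7% of all genes. In the gPSC4 origin 13 rose and 4 fell, against 15.8% and 13.9%. The median difference was 0.83 and 0.86, and that of all genes 0.10 and 0.08. When quantile normalization brought the ESC-origin median of all genes to 0.00, that of the 34 genes was 0.71. In all, 9 genes rose in both origins, 81.8% of the ESC list and 69.2% of the gPSC4 list: Acsl1, Cpt1a, Hadha, Hadhb, Etfb, Acaa2, Acat1, Ehhadh and Hsd17b4. Acsl4, Slc27a2, Cpt1b and Cpt1c fell in both. The sum of all 35 levels was 1622 to 1689 FPKM in the 6 EpiLC libraries and 2170 to 2273 FPKM in the 6 PGCLC libraries.

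Of the 7 genes from hydration to thiolysis, 4 rose in each origin, and 1 fell in the ESC origin and 0 in the gPSC4 origin. Acaa2, the thiolase of the last step for medium and long chains, was at 14.6, 15.5 and 18.8 FPKM in ESC-EpiLC and 89.2, 73.8 and 97.5 FPKM in ESC-PGCLC, 5.33-fold higher (2.34 ± 0.16 SE, adjusted p = 2.5e-10). From gPSC4 it went from 16.97, 23.0 and 14.0 FPKM to 98.0, 82.4 and 91.3 FPKM. No EpiLC library reached a PGCLC library. Acat1, the thiolase that splits and joins acetoacetyl-CoA, was at 25.5, 18.8 and 22.9 FPKM in ESC-EpiLC and 83.8, 69.5 and 57.0 FPKM in ESC-PGCLC (1.60 ± 0.16 SE, adjusted p = 6.3e-08). From gPSC4 it went from 23.8, 18.65 and 18.1 FPKM to 66.8, 75.7 and 70.5 FPKM, 3.52-fold higher. Both thiolases were thus apart in every library of both origins. Hadha and Hadhb, the 2 subunits of the trifunctional protein, stood near the minimum difference, at 1.06 and 1.01 in the ESC origin and 1.10 and 1.12 in the gPSC4 origin. In the ESC origin both were below it when libraries were rescaled and without the third ESC-PGCLC library, Hadhb also without the first ESC-EpiLC library.

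Hadh, Echs1 and Hsd17b10, also of the spiral, had the opposite sign in both origins. Hadh, the dehydrogenase for medium and short chains, was at 134, 137 and 118 FPKM in ESC-EpiLC and 61.5, 66.1 and 49.1 FPKM in ESC-PGCLC (−1.13 ± 0.15 SE, adjusted p = 1.9e-06). From gPSC4 it was at 128, 110 and 102 FPKM and then 80.9, 57.5 and 68.1 FPKM, under the minimum difference (−0.72 ± 0.15 SE). Echs1 averaged 116 and 63.4 FPKM in the ESC origin and 125 and 64.2 FPKM in the gPSC4 origin (−0.85 and −0.95), with adjusted p under 0.05 and less than the minimum difference. All 6 PGCLC libraries were below all 6 EpiLC libraries for both genes. The isomerase Eci1 also had negative differences, while Eci2 had differences of 0.99 and 0.97.

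Of the 3 activating genes that had risen in EpiLC, Acsl4 and Slc27a2 fell in PGCLC. Acsl4 was at 2.30, 2.27 and 2.46 FPKM in ESC-PGCLC, 36.1-fold below ESC-EpiLC (−4.68 ± 0.29 SE, adjusted p = 4.8e-11). In gPSC4-PGCLC it was at 2.05, 2.89 and 0.55 FPKM, 43.3-fold below gPSC4-EpiLC. Slc27a2 was at 3.18, 5.20 and 4.37 FPKM in ESC-PGCLC (−4.17 ± 0.22 SE, adjusted p = 3.7e-12) and 4.02, 6.19 and 3.29 FPKM in gPSC4-PGCLC (−3.79 ± 0.22 SE). These levels were also below those of ESC and gPSC4. The third, Acsl5, had differences of −0.85 in both origins, under the minimum, and its PGCLC levels of 16.5 to 24.9 FPKM were above those of the stem cells. Acsl1, the main synthetase of oxidative tissues, was at 13.3, 16.1 and 14.2 FPKM in ESC-EpiLC and 43.2, 48.2 and 43.3 FPKM in ESC-PGCLC (1.56 ± 0.13 SE, adjusted p = 6.4e-09). From gPSC4 its rise was 1.16, and 1.00 without the first gPSC4-PGCLC library, just under the minimum. Slc27a1 rose in the ESC origin (1.39 ± 0.26 SE, adjusted p = 0.00012) and had a difference of 0.99 in the gPSC4 origin.

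In the carnitine shuttle the Cpt1 genes went different ways. Cpt1a was at 13.3, 9.22 and 11.7 FPKM in ESC-PGCLC (1.43 ± 0.22 SE, adjusted p = 1.8e-05) and 15.9, 25.6 and 16.3 FPKM in gPSC4-PGCLC (1.93 ± 0.22 SE). Within each origin its PGCLC levels lay between those of EpiLC and of the stem cells. Cpt1c, a form found in neurons with little transferase activity, was at 32.4, 30.8 and 31.6 FPKM in ESC-EpiLC and 14.1, 15.1 and 14.3 FPKM in ESC-PGCLC (−1.07 ± 0.12 SE, adjusted p = 4.7e-07). Cpt1b, the muscle form, was at 2.77, 2.63 and 2.81 FPKM in ESC-EpiLC and was listed at 0, 0 and 0.39 FPKM in ESC-PGCLC. From gPSC4 it went from 6.02, 4.93 and 3.93 FPKM to 1.81, 0.035 and 0.82 FPKM. Slc25a20 rose in the gPSC4 origin, from an average of 18.2 to 44.3 FPKM (1.21 ± 0.14 SE, adjusted p = 6.1e-07), and had a difference of 0.84 in the ESC origin. It remained below the stem cell level in both origins.

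Of the 3 electron transfer genes, 1 rose in the ESC origin and 2 in the gPSC4 origin, and of the 3 peroxisomal genes, 2 and 3. Etfb was at 141, 130 and 139 FPKM in ESC-EpiLC and 340, 346 and 343 FPKM in ESC-PGCLC (1.32 ± 0.06 SE, adjusted p = 8.3e-13), where it was the most abundant of the 35 genes. In gPSC4-PGCLC it was at 322, 337 and 353 FPKM. Its partner Etfa averaged 159 and 279 FPKM in ESC-EpiLC and ESC-PGCLC (0.82), and Etfdh 29.4 and 59.9 FPKM, just under the minimum difference at 1.00, with a call in the gPSC4 origin (1.30), from 28.9, 21.8 and 24.5 FPKM to 66.4, 64.6 and 58.0 FPKM. Ehhadh was at 12.96, 9.03 and 12.4 FPKM in ESC-PGCLC (2.14 ± 0.28 SE, adjusted p = 2.5e-06) and 17.2, 14.97 and 17.7 FPKM in gPSC4-PGCLC (2.67 ± 0.28 SE). Hsd17b4, the other peroxisomal bifunctional enzyme, averaged 38.7 FPKM in both EpiLC groups and 83.4 and 78.9 FPKM in ESC-PGCLC and gPSC4-PGCLC. Its call was lost in both origins when libraries were rescaled (0.91 to 0.98), and in the gPSC4 origin without the second EpiLC or the second PGCLC library. Acaa1a was called in the gPSC4 origin alone (1.10, and 1.00, just under the minimum, with median ratios), at 0.92 in the ESC origin.

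Acads, which makes crotonyl-CoA, was called in the ESC origin alone. It was at 28.8, 30.5 and 31.6 FPKM in ESC-EpiLC and 62.5, 60.8 and 64.1 FPKM in ESC-PGCLC (1.02 ± 0.11 SE, adjusted p = 2.0e-07). The call was lost when libraries were rescaled and without the first ESC-EpiLC library (0.99). In the gPSC4 origin the difference was 0.68. The other acyl-CoA dehydrogenases lay between 0.25 (Acadl, gPSC4 origin) and 0.98 (Acadvl, ESC origin). Ppara, the nuclear receptor that turns on oxidation genes in liver, was listed at 0 in the 3 gPSC4-EpiLC libraries and at 1.74, 2.96 and 0.28 FPKM in gPSC4-PGCLC (1.27 ± 0.30 SE, adjusted p = 0.0012), and the call was lost without the second gPSC4-PGCLC library (0.91). Ppara passed the filter through PGCLC and PGC libraries alone, so its call is no support for the count. Ppargc1a did not pass the filter, with at most 1.32 FPKM in any library.

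The erythroid and gonadal somatic markers given above moved with every rise and fall at this step. Erythroid markers were at most 4.26 FPKM in sum in EpiLC and at least 952 FPKM in PGCLC of both origins, with Hba-a1, Hbb-bt and Hbb-y at or above 1 FPKM in all 6 PGCLC libraries. Fetal gonad soma markers were 34.5 to 51.5 FPKM in sum in EpiLC and 165 to 202 FPKM in PGCLC. Their part in the PGCLC differences was not tested.

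**Figure D4:**
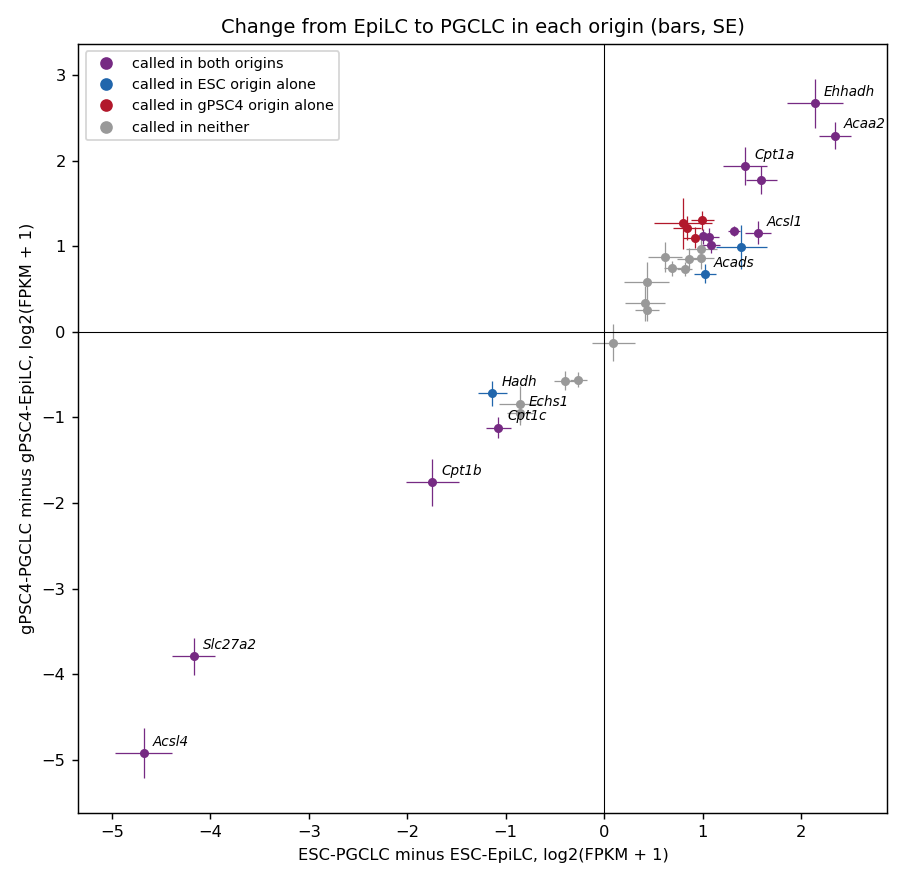
Difference in log2(FPKM + 1) from EpiLC to PGCLC for 34 genes, with the ESC origin on the horizontal and the gPSC4 origin on the vertical axis, bars giving SE and colours the calls. Acsl4 and Slc27a2 sit at the lower left, at −4.68 and −4.17 in the ESC origin, and Acaa2 and Ehhadh at the upper right.

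Whether the step differed by origin was tested as an interaction. No gene of the 34 was called, where 0.0498% and 0.0356% of all genes were called higher and lower. An unadjusted p under 0.05 was found for 3 of the 34 (Acsl1, Acads and Hsd17b10) and 11.6% of all genes. So the genes called in 1 origin alone were not shown to differ between origins. Between gPSC4 and ESC, no gene was called at any stage by limma or by limma-voom on recovered reads. Of all genes, 0.00711% were called lower in the stem cells, 0.0427% higher and 0.0285% lower in EpiLC, and 0.0925% higher and 0.22% lower in PGCLC. An unadjusted p under 0.05 was found for 0 of the 34 genes in the stem cells, 3 in EpiLC and 3 in PGCLC, against 4.21%, 8.55% and 14% of all genes. Hsd17b10, a mitochondrial dehydrogenase that also serves tRNA processing, had the smallest p in EpiLC, at 164, 174 and 173 FPKM from gPSC4 and 123, 141 and 131 FPKM from ESC (0.37 ± 0.09 SE, adjusted p = 0.10). Cpt1a had the smallest p in PGCLC, higher in all 3 gPSC4 libraries than in any ESC library (0.69 ± 0.22 SE, adjusted p = 0.16).

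PGC of E12.5 embryos were set beside PGCLC. Against ESC-PGCLC, 0 of 34 genes were called, where 0.0854% of all genes were higher and 0.341% lower. Against gPSC4-PGCLC, 0 were called, where these shares were 0.185% and 0.391%. An unadjusted p under 0.05 was found for 2 and 5 of the 34, against 13.9% and 13.1% of all genes. limma-voom on recovered reads also called 0 in each. Hadh had the smallest p in both, at 50.8, 37.0 and 33.7 FPKM in PGC, below all gPSC4-PGCLC libraries (−0.76 ± 0.15 SE, adjusted p = 0.011), under the minimum difference. For Hadh, PGC and ESC-PGCLC overlapped (−0.54 ± 0.15 SE, adjusted p = 0.089). Cpt1a was at 11.2, 10.3 and 14.0 FPKM in PGC, below the 3 gPSC4-PGCLC libraries (−0.64 ± 0.22 SE, adjusted p = 0.20). The most abundant genes had like levels, Etfb 339, 347 and 327 FPKM and Etfa 306, 309 and 296 FPKM in PGC. These comparisons share the PGC libraries.

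Which family member had the largest share of its family's summed level differed between groups, and for Cpt1 also between the ES cells of 2 tables. In granulosa cells Cpt1a made up 92.6% of the summed Cpt1 level, and in the 6 gPSC lines 37.3 to 44.7%, with Cpt1c at 54.8 to 62.7%. In the table of starting cells, Cpt1a made up 93.3% in granulosa cells and still led in ES cells, at 59.6 to 61.8%. Cpt1c made up 35.1 to 37.8% in those ES cells. In the induction table, Cpt1a made up 36.7 to 43.1% in ESC, 8.16 to 11.1% in ESC-EpiLC and 37.9 to 48.6% in ESC-PGCLC. From gPSC4 the ranges were 42.2 to 44.8%, 6.55 to 15.2% and 45.5 to 64.2%. Cpt1c led in ESC of the induction table, at 50.8 to 57.2%, unlike in the ES cells beside the starting cells. Acsl4 made up 55.8% of the summed level of 4 Acsl genes in granulosa cells and 19.6 to 23.6% in the gPSC lines. It made up 48.9 to 54.6% in ESC-EpiLC and 1.97 to 2.07% in ESC-PGCLC, where Acsl3 (37.4 to 43.5%) and Acsl1 (34.6 to 42.7%) led. These shares compare levels per length, within a library.

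**Figure D5:**
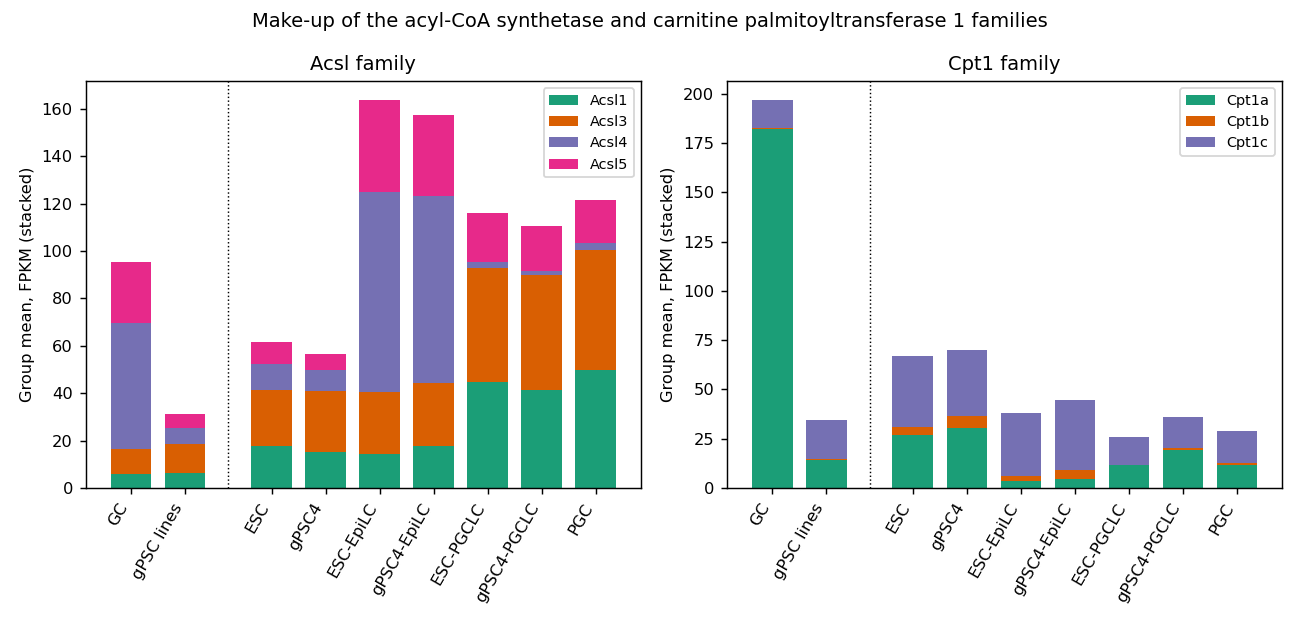
Stacked group means (FPKM) of 4 Acsl genes and 3 Cpt1 genes in granulosa cells and gPSC lines (left of the dotted line) and in the 7 groups of the induction table, which was normalized separately. In the right panel Cpt1a (green) fills most of the granulosa bar, and in the left panel Acsl4 (purple) is the largest segment in granulosa cells and both EpiLC groups.

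Other genes of lipid metabolism were counted from fixed lists, to be read against the shares of all genes called in the same comparison. These were 9.64% higher and 11.3% lower for ESC-EpiLC, 10.1% and 10.3% for gPSC4-EpiLC, 16.7% and 12.7% for ESC-PGCLC, 15.8% and 13.9% for gPSC4-PGCLC, and 21.8% and 17.7% for the lines. Of 15 further peroxisomal genes tested, 6 fell and 0 rose from ESC to EpiLC, and 7 fell and 2 rose from gPSC4. The widest fall in the ESC origin was that of Acox3, an acyl-CoA oxidase, from 37.6 to 4.60 FPKM. At the PGCLC step 6 rose and 1 fell in the ESC origin, and 5 rose and 1 fell in the gPSC4 origin. Scp2, a peroxisomal thiolase and lipid carrier, went from 34.0 to 121 FPKM in the ESC origin (1.81 ± 0.10 SE, adjusted p = 8.6e-12). The 1 that fell in both was Phyh, which starts alpha-oxidation. Of 11 fatty acid synthesis genes, 2 rose and 0 fell on the way to EpiLC in each origin, Fads2 and Elovl6. At the PGCLC step 0 rose and 5 fell in the ESC origin and 6 fell in the gPSC4 origin. Acly, which makes cytosolic acetyl-CoA, and the desaturase Scd1 had the widest falls in both, in the ESC origin from 347 to 73.7 FPKM and from 71.5 to 16.7 FPKM. The median differences of this list were −0.97 and −1.04.

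Of 6 ketone body genes, 2 rose and 1 fell at the PGCLC step in each origin. Of 10 other regulators, 4 rose and 1 fell in each origin, and Esrrb, an orphan receptor of pluripotent cells, went from 2.61 to 48.7 FPKM in the ESC origin. Of 14 further uptake and activation genes, 5 rose and 2 fell in each origin at this step, and Acss1, the mitochondrial acetyl-CoA synthetase, went from 2.43 to 46.1 FPKM in the ESC origin. Of 13 further mitochondrial acyl-CoA genes, 2 rose and 1 fell in the ESC origin and 1 rose and 1 fell in the gPSC4 origin. Against granulosa cells, the lines had 3 of 11 synthesis genes lower and 0 higher, with Scd2 at 93.0 against 614 FPKM, and 4 of 14 peroxisomal genes lower and 1 higher, with Scp2 at 31.5 against 103 FPKM. With crotonic acid, where 0.852% and 1.2% of all genes were called, 1 gene of these lists was, Fabp3, a fatty acid binding protein, at 81.7 against 199.8 FPKM without (−1.28 ± 0.22 SE, adjusted p = 0.024).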

How the data were processed

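The data were RNA-seq of 39 mouse libraries. The authors deposited FPKM in 5 tables, per the file headers. Per the labels' protocols, RNA came from a Qiagen kit and libraries from the NEBNext Ultra kit. The submitters' processing notes name build mm10 and, as tools, DESeq2, R (3.4.2), RSEM, HISAT2 and Bowtie2, whose roles are not given in the sources used here. Tables were normalized separately and were compared only within a table. Depth is known for the induction table alone, where 92.2% of genes with a value resolved into whole reads within 0.001 reads.

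The tests used limma 3.58.1 in R 4.3.3 on log2(FPKM + 1), with all groups of a table, a mean-variance trend and Benjamini-Hochberg adjustment, two-sided. Genes below 1 FPKM were dropped unless 2 libraries (reprogramming), 1 library (lines) or 3 libraries (induction) reached it, leaving 13266, 13797 and 14059 genes. For a call, the adjusted p had to be under 0.05 and the log2 means at least 1 apart. There were 13 tested comparisons and 2 described without a test. Every library is given for called genes, at most 8 with the largest differences in a comparison, and for Echs1, Acads and Hadha with crotonic acid; of other lists at most 3 genes are named. Some genes of these lists are not reported here. The genes and lists were chosen with earlier results of these data known. The ESC and fibroblast columns matched their group and no numbered sample. The fit was tested on simulated data. Alternatives were another pseudocount, no filter, 2 rescalings, a replicate block, no minimum difference, leaving out each library, and limma-voom on recovered reads, which was added after the data were seen. Replicate numbers do not pair samples in the labels.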

Additional observations from a re-analysis of the deposited data

Results flagged for a closer look

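Slc27a1 in gPSC line 11 was at 7.48 FPKM, while the other 5 lines lay between 8.75 and 9.40 FPKM, and the gap to the nearest line was 66.1% of the whole range. The 35 genes were each examined for such a library over the 6 lines, and 1 was found. Chance alone marks about 1 in 20 such groups.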

How the results depend on the processing

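Counts of genes called kept within 1.5 times under a pseudocount of 0.1, no filter, both rescalings and the replicate block, except as follows. From day 16 to day 28, 1 gene was called, 2 with a pseudocount of 0.1 and 0 with median ratios or quantile normalization. Of all genes, 5.34% were called, 8.48% with that pseudocount, 4.83% with median ratios and 4.14% with quantile normalization. With median ratios, 10 genes in place of 16 were past the difference lower in fibroblasts than in granulosa cells. The share of all genes for that rescaled comparison is not given here. With no minimum difference, the counts were 9 for day 28 against day 16 (4 higher, 5 lower), 1 for crotonic acid, 22 for the lines (4 higher, 18 lower), 20 for ESC-EpiLC, 17 for gPSC4-EpiLC, 31 for ESC-PGCLC and 31 for gPSC4-PGCLC (22 higher and 9 lower in each), and 1 for PGC against gPSC4-PGCLC. The shares of all genes called at that setting were, in the same order, 22.5%, 7.21%, 72.4%, 45.7%, 44.8%, 57.4%, 58.3% and 1.06%. Leaving out 1 library at a time gave 0 to 1 genes for day 28 against day 16, 0 for crotonic acid, 11 for the lines, 7 to 8 for ESC-EpiLC, 7 to 9 for gPSC4-EpiLC, 16 to 19 for each PGCLC step and 0 for the interaction, the 3 comparisons of origins and both comparisons of PGC. With 1 library left out, 28.8% to 30.0% of all genes were called at the PGCLC steps. No direction reversed under the alternatives run, and the cause of the changes was not tested.

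With the replicate number as a block, 17 genes were called at the gPSC4-PGCLC step and 16 at the ESC-PGCLC step. The block gave 8 for gPSC4-EpiLC and 1 for day 28 against day 16. Of all genes, 29.5%, 29.2%, 20.4% and 5.57% were called, in the same order. Same-numbered libraries correlated in their deviations at r of −0.03 to 0.17 in the induction table and 0.14 to 0.34 in the reprogramming table, where 2 libraries a group make the values for different numbers the mirror image. The labels give the numbers no shared source, so they were not taken to pair samples, and the ESC columns carry no number, so comparisons with ESC had no such fit. Over all genes, the calls for day 28 against day 16 were 708 and, with a pseudocount of 0.1, 1125, and the higher share was 84.5%, 70.4% with median ratios and 61.7% with quantile normalization. limma-voom on recovered reads called 18 genes at the ESC-PGCLC step and 17 at the gPSC4-PGCLC step. Of all genes it called 32.2% and 33.7%, against 29.3% and 29.7% in the main fit. Depth sets no known limit in the other 4 tables, and 1 granulosa library per table leaves its spread unmeasured.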

Other observations

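Etfb was at 0.84 FPKM in the fibroblast library of the table without symbols and at 82.3 FPKM in the fibroblast library of the table of starting cells, while its partner Etfa was at 57.2 and 38.3 FPKM. The 2 tables were normalized separately.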
